A study of Mus musculus with 2 samples.

Results

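Bidirectional promoters are the short stretches of DNA between genes that start close together on opposite strands and are transcribed away from each other. They were taken here as pairs of GENCODE M21 protein-coding genes on the 19 mouse autosomes whose gene 5′ ends lay at most 1000 bp apart, head to head and without gene overlap. The rule gave 734 pairs, holding 1448 of the 20807 autosomal protein-coding genes (6.96%), and used only the annotation, not the DNase-seq data. Of these genes, 20 belonged to 2 pairs, and 714 regions remained when overlapping ones were merged. Each region was the gap between the 5′ ends plus 500 bp into each gene. They were set against 17774 one-way promoters, of autosomal coding genes with no other coding 5′ end within 2000 bp on either strand. A one-way window ran from 500 bp inside the gene to 500 bp beyond a stretch of 128 bp upstream of the 5′ end, 128 bp being the median distance within the pairs.

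Accessible chromatin was measured by DNase-seq, which maps where the enzyme DNase I cuts chromatin, in adipocytes made in culture from 3T3-L1 cells, a mouse preadipocyte line, at day 8 of differentiation. There was 1 group of 2 libraries, replicates 1 and 2, with no undifferentiated or treated cells beside them, so the contrast is between kinds of promoter inside each library. The labels give C57BL/6J as the strain and the same donor for both libraries, and do not say whether the cultures were independent. The 2 libraries are too few for a test: an exact sign-flip permutation over them cannot give a p below 0.5. Values are therefore given per library, with the SD between libraries for the difference in the share with a peak. Intervals are exact binomial (Clopper-Pearson) 95% intervals over promoters, which cover counting error only.

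The lists held 133695 peaks of 150 bp in replicate 1 and 216556 in replicate 2, and 117685 and 185029 hotspots, which are broader enriched regions. The read depth behind them is unknown. Of 9 adipocyte genes checked, among them Pparg, Cebpa, Adipoq and Fabp4, 7 had a peak of both libraries within 1000 bp of the gene 5′ end, and Lipe and Cd36 had none there. None of 6 genes that define blood, endothelium, muscle, liver, epithelium and neurons had one in either library.

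Genes arranged head to head share a nucleosome-depleted stretch from which RNA polymerase II is loaded in both directions. In mammals such promoters are usually CpG islands without a TATA box, and the genes they serve are often housekeeping genes for DNA repair, mitochondria, translation and metabolism. Transcription also runs a short way upstream from many promoters of single genes, so a one-way promoter is defined by its annotated genes and not by the polymerase. Factors known at CpG-island promoters include the ETS family (CCGGAAG), Sp and Klf proteins at the GC box (GGGCGG), NF-Y at the CCAAT box, NRF1 (CGCATGCG) and YY1 (ATGGCGG).

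The gaps of 10 pairs are printed to show what lies between such genes. They are read from the plus strand of GRCm38.p6, from the base after the 5′ end of the minus-strand gene, named first, to the base before the 5′ end of the plus-strand gene. Capitals mark matches, on either strand, to 1 of 13 short motifs searched. The first 7 had a peak in both libraries, and the last 3 had none in either. Hadha and Hadhb encode the alpha and beta subunits of the mitochondrial trifunctional protein of fatty acid oxidation, and their gap (chr5:30155163-30155247) holds GC boxes and a YY1 motif that runs into the second of them.
Hadha-Hadhb: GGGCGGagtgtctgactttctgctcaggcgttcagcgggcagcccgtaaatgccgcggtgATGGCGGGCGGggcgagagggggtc
Psmb1, a proteasome subunit, and Tbp, the TATA-binding protein (chr17:15499752-15499887), are separated by a gap with 1 GC box.
Psmb1-Tbp: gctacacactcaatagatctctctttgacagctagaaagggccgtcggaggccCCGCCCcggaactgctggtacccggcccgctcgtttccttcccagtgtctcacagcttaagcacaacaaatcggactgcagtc
Mrps12 and Sars2 (chr7:28741821-28741991), a mitochondrial ribosomal protein and the mitochondrial seryl-tRNA synthetase, are divided by a gap with 4 CCAAT boxes and a GC box.
Mrps12-Sars2: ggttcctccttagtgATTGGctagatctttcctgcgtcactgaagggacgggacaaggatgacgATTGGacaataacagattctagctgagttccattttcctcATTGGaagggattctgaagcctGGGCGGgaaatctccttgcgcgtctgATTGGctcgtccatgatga
The next 4 are gaps of pairs with the highest-ranking peaks of all: Casc1-Etfrf1 (chr6:145211006-145211133), Prkar1b-Dnaaf5 (chr5:139150002-139150222), which holds an ETS motif, Zfp142-Bcs1l (chr1:74588247-74588288) and Swt1-Trmt1l (chr1:151428456-151428541), which holds the core motif of Zfp143.
Casc1-Etfrf1: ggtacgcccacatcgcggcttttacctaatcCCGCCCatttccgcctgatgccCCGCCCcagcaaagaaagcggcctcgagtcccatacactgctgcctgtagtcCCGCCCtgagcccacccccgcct
Prkar1b-Dnaaf5: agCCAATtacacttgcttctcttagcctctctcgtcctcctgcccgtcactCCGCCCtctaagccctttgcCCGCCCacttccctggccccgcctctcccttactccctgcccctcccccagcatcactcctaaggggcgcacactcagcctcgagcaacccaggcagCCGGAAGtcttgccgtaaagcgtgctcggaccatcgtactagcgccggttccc
Zfp142-Bcs1l: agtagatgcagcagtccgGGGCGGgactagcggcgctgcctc
Swt1-Trmt1l: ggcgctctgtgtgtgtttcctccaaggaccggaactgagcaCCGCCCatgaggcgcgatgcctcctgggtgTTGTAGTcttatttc
The 3 gaps without a peak are those of Col4a4-Col4a3 (chr1:82586850-82586920), which encode type IV collagen chains of the kidney filter, of Smc1b-Ribc2 (chr15:85131965-85132077), the first of them a meiotic cohesin subunit, and of the histone pair Hist1h2ap-Hist1h2br (chr13:21833508-21833742). The Smc1b gap holds the 8-base palindrome CTCGCGAG, a motif bound by the factor Banp.
Col4a4-Col4a3: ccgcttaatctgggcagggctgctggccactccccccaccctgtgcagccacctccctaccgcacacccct
Smc1b-Ribc2: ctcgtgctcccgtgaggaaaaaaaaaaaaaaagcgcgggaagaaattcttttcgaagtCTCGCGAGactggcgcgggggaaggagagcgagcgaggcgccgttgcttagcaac
Hist1h2ap-Hist1h2br: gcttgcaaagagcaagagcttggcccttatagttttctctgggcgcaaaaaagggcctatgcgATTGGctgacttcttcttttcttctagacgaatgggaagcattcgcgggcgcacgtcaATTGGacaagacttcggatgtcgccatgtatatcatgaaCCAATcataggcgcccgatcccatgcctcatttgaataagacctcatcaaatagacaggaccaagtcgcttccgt

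Nearly all bidirectional promoters were accessible. A peak lay in 686 of the 734 regions in replicate 1 (93.5%, interval 91.4 to 95.1) and in 691 in replicate 2 (94.1%, interval 92.2 to 95.7), against 7931 (44.6%) and 8587 (48.3%) of the 17774 one-way promoters. Peaks of both libraries were present in 685 bidirectional regions, which is 93.3% (interval 91.3 to 95.0), and in 7891 one-way windows, which is 44.4% (interval 43.7 to 45.1). Over all autosomal coding promoters, taken with the one-way window, the share was 49.97%. The difference between bidirectional and one-way promoters was 48.8 percentage points in replicate 1 and 45.8 in replicate 2, with an SD of 2.13 between the libraries. Coding genes whose divergent partner within 1000 bp was a noncoding gene lay between, with peaks of both libraries at 597 of 816 (73.2%, interval 70.0 to 76.2). Where no gene of any kind started within 2000 bp, the share was 41.5% of 15414 promoters. A bidirectional region holds the starts of both genes and a one-way window a single coding start, and a peak at either start counted. With 500 bp to each side of every 5′ end as the window, the shares were 91.9% and 44.0%. In close pairs that window also holds the partner's start, so the part of the second start in the difference was not tested.

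**Figure D1:**
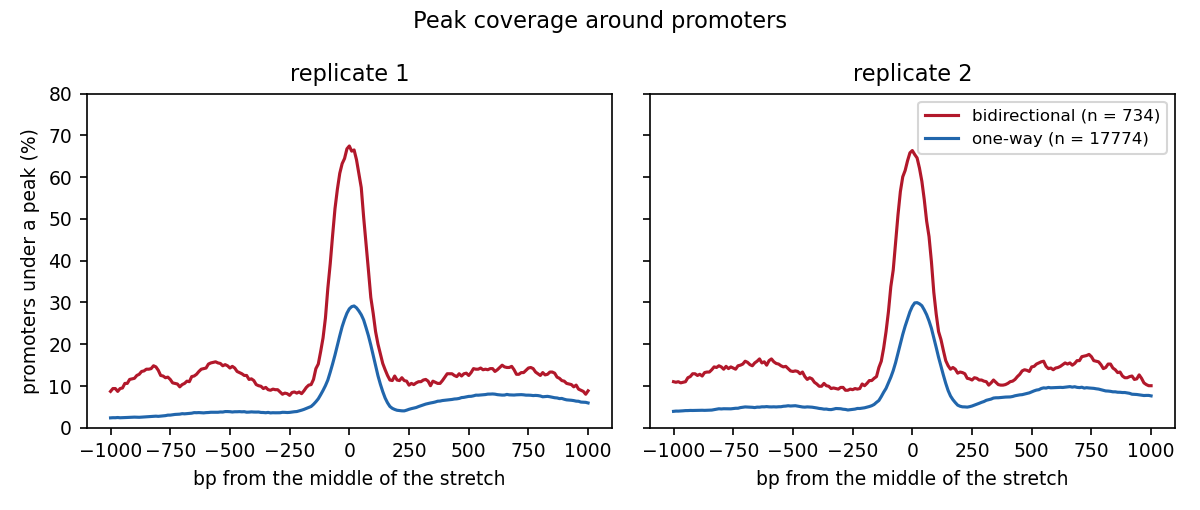
Share of promoters covered by a peak (y axis, percent) at each distance in bp from the middle of the stretch between the 5′ ends (x axis; for one-way promoters the stretch is 128 bp upstream of the 5′ end, with the gene to the right), in replicates 1 and 2. Bidirectional promoters (red) peak at 67.4% and 66.4% in the middle of the stretch, and one-way promoters (blue) at 29.2% and 30.0%, 20 bp towards the gene.

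Averaged over pairs, peak coverage was highest midway between the 5′ ends, at 67.4% of pairs in replicate 1 and 66.4% in replicate 2. It stayed above the midpoint of its height from 80 bp before the middle to 80 bp after it in replicate 1, and from 90 bp before to 80 bp after in replicate 2. At one-way promoters the maximum was 29.2% and 30.0%, and lay 20 bp towards the gene: coverage 500 bp from the middle was 7.52% and 8.61% on the gene side and 3.87% and 5.26% upstream. In the pairs, where a gene lies on each side, it was 12.5% and 14.6% on the side of the plus-strand gene and 14.3% and 13.5% on the other. This average does not show where the peak of a single pair lay.

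Many pairs, whose regions hold the starts of both genes, carried more than 1 peak. At least 2 peaks lay in 387 regions in replicate 1 (52.7%) and in 405 in replicate 2 (55.2%), against 20.6% and 24.2% of one-way windows. Among regions with any peak, the shares were 56.4% and 58.6% for pairs, against 46.2% and 50.2% for one-way promoters, a smaller contrast than over all promoters. The mean number of peaks was 1.67 and 1.71 per bidirectional region, against 0.705 and 0.795 per one-way window. Peaks covered 19.2% and 19.5% of the bidirectional regions, against 8.52% and 9.52% of the one-way windows. The 1199 and 1225 peaks in bidirectional regions made up 0.922% and 0.583% of all autosomal peaks, so the longer list of replicate 2 added few peaks here.

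A single hotspot usually ran from 1 gene into the other. It covered the whole stretch between the 5′ ends in 633 pairs in replicate 1 (86.2%) and 645 in replicate 2 (87.9%), and in 633 pairs in both. At one-way promoters a hotspot covered the 128 bp upstream of the 5′ end in 37.7% and 41.3%, and in 37.6% in both libraries, beside 42.99% of all autosomal coding promoters. For coding genes with a divergent noncoding partner within 1000 bp the share in both libraries was 68.5%. The widest hotspot in a bidirectional region had a median of 1066 bp in replicate 1 and 1556 bp in replicate 2. The widest of all in replicate 1 measured 7775 bp and lay over Ift80 and Smc4, an intraflagellar transport gene and a condensin subunit, where replicate 2 had 3801 bp. In replicate 2 the widest, 5200 bp, lay over Mrps18b and Ppp1r10, where replicate 1 had 1866 bp, and Hnrnpa2b1-Cbx3, a splicing factor and a heterochromatin protein, followed with 4980 bp, and Zfp91-Lpxn with 4627 bp. Uqcrh-Lrrc41, the first of them a subunit of respiratory complex III, had 4037 bp in replicate 1 and 4098 bp in replicate 2, and Tshz1-Zadh2 had 3648 and 4435 bp.

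The peaks at bidirectional promoters were among the highest in each library. The authors' value per peak runs from 1 to 150 and its scaling is unknown, so each peak was ranked within its own list, as a percentile, with 0 for a promoter without a peak. The strongest peak of a bidirectional region was taken over the starts of both genes. It had a median value of 107, or percentile 95.0, in replicate 1 and 140, or percentile 97.1, in replicate 2. The medians over all one-way promoters were 0 in both libraries, since most had no peak. A peak in the top 10% of its list was present in 74.3% and 84.2% of bidirectional regions, against 24.3% and 31.2% of one-way windows. Coding genes with a divergent noncoding partner within 1000 bp lay between, at 49.4% and 60.3%. Their median percentiles were 89.8 and 93.9. Restricted to promoters with a peak, the medians were 95.6 and 97.1 for pairs, against 91.1 and 94.3 for one-way promoters. That restriction drops most one-way promoters and is given as a description.

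**Figure D2:**
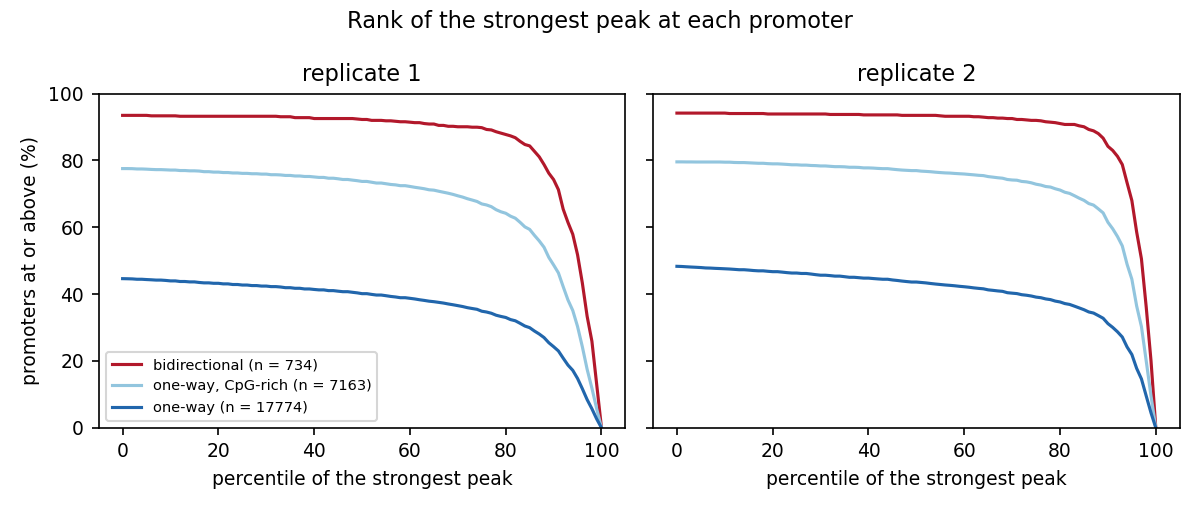
Share of promoters (y axis, percent) whose strongest peak reached at least the percentile on the x axis within its own library's list, in replicates 1 and 2; promoters without a peak count as 0. The curve of the 734 bidirectional promoters (red) stays above those of the 7163 CpG-rich one-way promoters (light blue) and of all 17774 one-way promoters (dark blue), and all fall steeply only near the top of the list.

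Bidirectional promoters were also richer in CpG, and part of the contrast moved with that. The ratio of observed to expected CpG had a median of 0.765 in bidirectional regions, against 0.480 in one-way windows, and the median GC content was 59.4%, against 53.3%. Coding genes with a divergent noncoding partner had a median ratio of 0.744, near that of the pairs. A ratio of at least 0.6, called CpG-rich here, was reached by 625 bidirectional regions (85.1%) and 7163 one-way windows (40.3%). Among CpG-rich promoters, peaks of both libraries lay in 97.6% of the bidirectional ones (interval 96.1 to 98.7) and 77.4% of the one-way ones (interval 76.4 to 78.4). The difference of 20.2 percentage points was smaller than the 48.9 points over all promoters. It too sets regions with the starts of both genes against windows with a single coding start. The median percentiles came close together there, at 95.6 and 97.1 for pairs against 89.4 and 93.9 for one-way promoters.

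**Figure D3:**
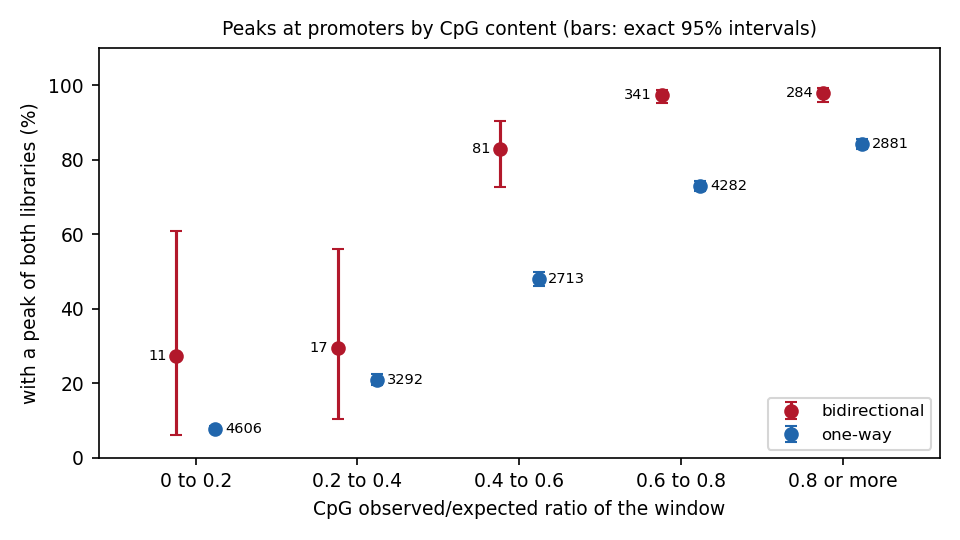
Share of promoters with a peak of both libraries (y axis, percent) by the ratio of observed to expected CpG in the window (x axis), for bidirectional (red) and one-way (blue) promoters; bars are exact 95% intervals and the small numbers give the promoters in each class. The bidirectional share is 82.7%, 97.4% and 97.9% from 0.4 upwards, against 48.1%, 72.8% and 84.2%, and the 2 lowest classes hold only 11 and 17 pairs.

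At ratios from 0.4 to 0.6, peaks of both libraries lay in 67 of 81 bidirectional regions (82.7%, interval 72.7 to 90.2), against 48.1% of one-way windows. From 0.6 to 0.8 the shares were 97.4% of 341, against 72.8%, and from 0.8 upwards 97.9% of 284, against 84.2%. Fewer pairs lay below 0.4, and such a peak was found in 5 of 17 between 0.2 and 0.4 and in 3 of 11 below 0.2. Their intervals, 10.3% to 56.0% and 6.02% to 61.0%, are too wide to set them apart from, or level with, the one-way shares of 20.9% and 7.69%. Most of the few pairs in these 2 classes had no peak of both libraries.

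The distance between the genes went with the share of pairs spanned by a hotspot more than with the presence of a peak. The distance was between 1 and 987 bp, with a median of 128 bp and quartiles of 66.3 and 240 bp, and 602 pairs lay within 300 bp. Peaks of both libraries were present in 98.4% of the 125 pairs at 1 to 50 bp, 94.5% of the 181 at 51 to 100 bp, 91.5% of the 200 at 101 to 200 bp, 92.7% of the 96 at 201 to 300 bp, 95.3% of the 64 at 301 to 500 bp and 85.3% of the 68 at 501 to 1000 bp. A hotspot across the whole stretch in both libraries was found in 98.4%, 91.7%, 87.5%, 85.4%, 84.4% and 48.5% of the same classes. The largest drop fell on the pairs more than 500 bp apart. A wider gap is harder for a single hotspot to cover by the definition of this measure, so the drop does not by itself describe the chromatin. The median CpG ratio of these pairs was 0.634, against 0.792 in the closest pairs.

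The centre of the strongest peak fell between the 5′ ends in 437 of 686 pairs in replicate 1 (63.7%) and 426 of 691 in replicate 2 (61.6%), and otherwise inside a gene. At one-way promoters it fell in the 128 bp upstream of the 5′ end in 53.0% and 49.5%. The share in the pairs moved with the room between the genes: it was 27.6% and 26.6% at 1 to 50 bp, 73.8% and 72.7% at 101 to 200 bp 85.5% and 83.6% at 301 to 500 bp and 77.6% and 78.0% at 501 to 1000 bp. A single 150 bp peak covered both 5′ ends in 209 pairs (30.5%) and 202 pairs (29.2%). Measured from the 5′ end, the centre lay a median of 61.5 and 63 bp upstream in the pairs, against 42.5 and 39.5 bp upstream at one-way promoters. Its median distance from the middle of the gap in replicate 1 was 27, 30, 34.5, 48, 97.3 and 303 bp from the closest to the widest class of pairs.

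**Figure D4:**
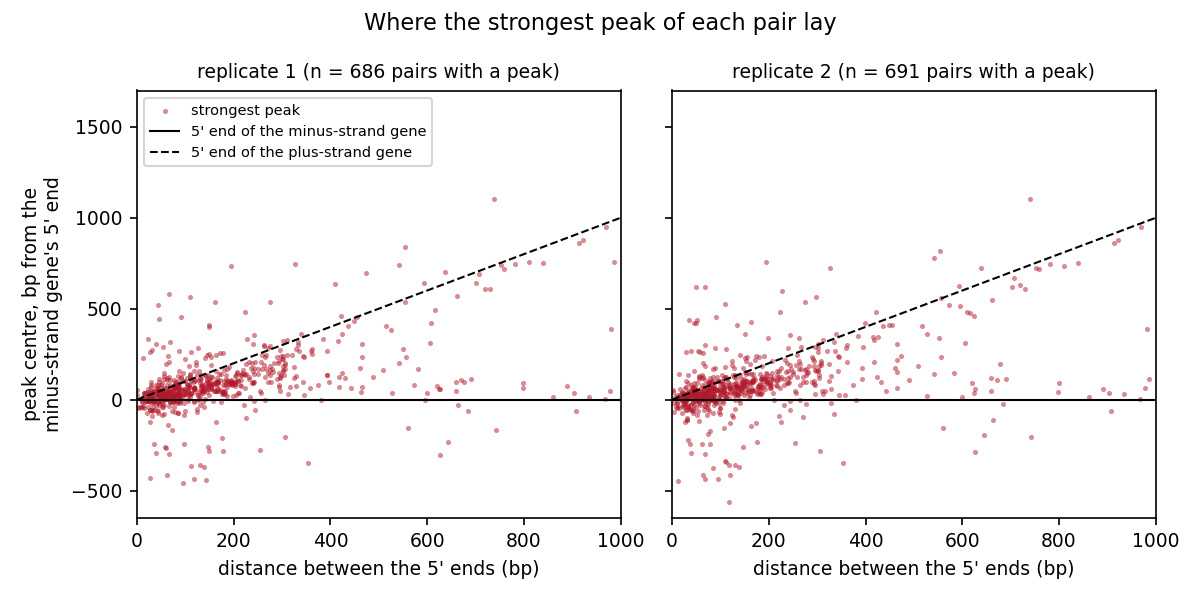
Centre of the strongest peak of each pair, in bp from the 5′ end of the minus-strand gene (y axis; negative values lie inside that gene), against the distance between the 5′ ends (x axis, bp), in replicates 1 and 2. The solid and dashed lines are the minus-strand and plus-strand 5′ ends; 63.7% and 61.6% of the points lie between them, and in the widest pairs many points lie near 1 line or the other.

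In wide pairs the peaks often lay at the individual starts. Among the 68 pairs 501 to 1000 bp apart, both 5′ ends had a peak within 100 bp in 21 pairs in replicate 1 and 23 in replicate 2. A single end had one in 31 and 29 pairs, and neither end in 16 and 16, of which 6 and 7 had a peak elsewhere in the region. At 301 to 500 bp, both ends had one in 23 and 24 of 64 pairs and a single end in 33 and 32. Abhd12-Gins1, a lipid hydrolase and a replication factor 659 bp apart, had its only peak 49 bp from the Abhd12 5′ end in both libraries, with values of 116 and 143 and no hotspot across the stretch. In Rnf5-Agpat1, 572 bp apart, the strongest peak lay 80 bp from the Rnf5 5′ end in replicate 1 and 520 bp from it, by Agpat1, in replicate 2.

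The libraries placed the peaks alike. In the 685 pairs with a peak in both, the centres of the strongest peaks differed by a median of 20 bp, by at most 20 bp in 539 pairs (78.7%) and by at most 75 bp in 621 (90.7%). Only 7 pairs had a peak in 1 library alone. Bend6-Dst had a peak of value 19 in replicate 1, at the low end of its list. The other 6 had one in replicate 2, the longer list: Wdr54-1700003E16Rik, Kirrel2-Nphs1, Polr2l-Tspan4, N4bp3-D930048N14Rik, Nt5c3b-Klhl10 and Pcdh12-Rnf14. Polr2l, a shared subunit of the RNA polymerases, stood out with a value of 119 (percentile 88.0) and a hotspot of 713 bp in replicate 2, and no peak or hotspot in replicate 1.

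At the 1000 bp limit itself, the values of the pairs named here overlapped between the sides, and these pairs are too few to compare the sides. Just inside it, Btf3l4-Txndc12 (987 bp apart) had values of 105 and 136, Asphd1-Sez6l2 (981 bp) 60 and 104 and Zfyve26-Rad51b (978 bp) 111 and 143 in replicates 1 and 2. Just outside it, Gpr108-Trip10 (1009 bp) had 116 and 148, Sgsm2-Tsr1 (1011 bp) 109 and 131, Dirc2-Hspbap1 (1019 bp) 88 and 133 and Ppt2-Prrt1 (1023 bp) 58 and 109.

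Of 29 mouse gene pairs listed because they are widely known as bidirectional, the rule found 11, and 10 of these had a peak of both libraries, beside 93.3% of all pairs. Hadha-Hadhb, 86 bp apart, had values of 95 and 138, at percentiles 90.7 and 96.3, and hotspots of 1670 and 2265 bp across both starts. Among repair genes, Atm-Npat, the damage-response kinase and a coactivator of histone genes 307 bp apart, had 133 and 145, and Mcm4-Prkdc, a helicase subunit and the catalytic subunit of DNA-dependent protein kinase 466 bp apart, had 132 and 148. Their percentiles were 99.8 and 98.8 for Atm-Npat and 99.7 and 99.6 for Mcm4-Prkdc. Psmb1-Tbp had 126 and 142 with its peak centred 59 bp from the Psmb1 5′ end in both libraries, within the printed gap. Mrps12-Sars2 had 122 and 145, centred 110 bp from the Mrps12 5′ end in both. Gart-Son, of purine synthesis and splicing, had 125 and 147. Among lipid and organic acid genes, Rnf5-Agpat1, the second of them an acyltransferase of phosphatidic acid synthesis, had 130 and 149, and Mphosph10-Mcee, the second of them methylmalonyl-CoA epimerase, had 97 and 140. Col4a4-Col4a3 had no peak and no hotspot in either library, and its nearest peak lay 10521 bp away from the Col4a4 5′ end in replicate 1 and 10561 bp in replicate 2.

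The respiratory chain and mitochondrial translation were served by 41 pairs, and all 41 had a peak of both libraries and a hotspot of both across the stretch, beside 93.3% and 86.2% of all pairs. These pairs held 41 of 178 autosomal genes of that list (23.0%), against 6.96% of all coding genes. Their strongest peaks had a median percentile of 95.5, averaged over the libraries, beside 96.1 for all pairs and 94.4 for one-way genes of the list. One-way genes of the list had a peak of both libraries in 91 of 104, beside 44.4% of all one-way promoters. Sdhd-Timm8b, a subunit of succinate dehydrogenase and a mitochondrial import protein, had values of 110 and 141, and Sdha-Ccdc127, with another subunit of that enzyme, had 96 and 125. Fam126b-Ndufb3, the second of them a complex I subunit, had 98 and 140, and Mitd1-Mrpl30, the second of them a mitochondrial ribosomal protein, had 96 and 140. Of the pairs named for these groups, those beyond the first 3 of a list in genome order were chosen for the known roles of their genes after their values were seen.

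Fatty acid, lipid and branched-chain amino acid metabolism held 12 pairs, and all 12 had peaks of both libraries and a spanning hotspot, beside 93.3% and 86.2% of all pairs. They contained 14 of 113 genes of the list (12.4%), and 71 of its 87 one-way genes had a peak of both libraries, beside 44.4% of all one-way promoters. The pairs' median percentile was 96.7, against 91.6 for the one-way genes of the list. Mmab-Mvk, the second of them mevalonate kinase of sterol synthesis, had 125 and 147. Bckdha-Exosc5, the first of them a subunit of branched-chain ketoacid dehydrogenase, had 115 and 141, and Acad10-Brap had 86 and 119. Acaca, the acetyl-CoA carboxylase that makes malonyl-CoA for fatty acid synthesis, shares its annotated 5′ end with Tada2a 72 bp away, and had the lower values of 58 and 105, at percentiles 65.9 and 80.2.

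DNA replication and repair had the largest share of its genes in pairs after the histones, with 34 of 118 (28.8%) in 35 pairs, as counted over the 9 lists. Of these pairs 34 had a peak of both libraries and 31 a hotspot of both across the stretch, beside 93.3% and 86.2% of all pairs, with a median percentile of 96.3. A peak of both libraries lay at 66 of its 70 one-way genes, beside 44.4% of all one-way promoters. The median percentile of these 70 genes was 95.1. Hscb-Chek2, the second of them a checkpoint kinase, had 121 and 145, Toe1-Mutyh, the second of them an adenine glycosylase, 111 and 140, Pms1-Ormdl1, the first of them a mismatch repair gene, 98 and 129, and Pxmp2-Pole, the second of them DNA polymerase epsilon, 88 and 134. Pinlyp-Xrcc1 was the exception and is described with the closed pairs.

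The counts of the next lists are small and stand beside 93.3% of all pairs with a peak of both libraries, 86.2% spanned and 44.4% of all one-way promoters with a peak. All 5 pairs with an aminoacyl-tRNA synthetase had a peak and a spanning hotspot of both libraries, and 23 of 24 one-way genes had such a peak. Median percentiles were 96.2 for these pairs and 95.9 for the one-way genes. S100pbp-Yars had values of 111 and 138, and Orc3-Rars2, only 13 bp apart, 97 and 128. Among cytosolic ribosomal proteins 7 of 8 pairs had a peak of both libraries, beside 55 of 59 one-way genes. Here the median percentile was lower in pairs, at 94.6 against 96.5 for the one-way genes. Rps27-Rab13 had 118 and 144, Med22-Rpl7a 104 and 136 and Rpl9-Lias 99 and 139. Chaperones had peaks of both libraries in 10 of 11 pairs, beside 37 of 50 one-way genes, and Hspa14-Cdnf had 124 and 146, Dnajb4-Fubp1 123 and 145 and Tsacc-Cct3, the second of them a chaperonin subunit, 111 and 143. Zinc finger genes were rare in pairs, with 20 of 412 (4.85%), and 16 of their 18 pairs had peaks of both libraries, beside 265 of 362 one-way genes. Median percentiles of pairs and one-way genes were 97.2 and 92.7 for chaperones and 96.3 and 86.8 for zinc finger genes. Zfp408-Arhgap1 had 120 and 143 and Zfp661-Mrps5 85 and 137, and the 2 closed pairs were Grik5-Zfp574 and Zfp558-Mbd3l1. Collagens, the genes of the fibrous matrix, formed only the pair Col4a4-Col4a3, 2 genes of 42, and 9 of 38 one-way collagen genes had a peak of both libraries.

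Replication-dependent histone genes, which are made in S phase and lie in clusters, had the largest share in pairs of the 9 lists, 27 of 67 (40.3%), and differed in form. Of their 14 pairs 11 had a peak of both libraries, with values of 96 to 116 in replicate 1 and 133 to 147 in replicate 2. Such a peak lay at 13 of 15 one-way histone genes. Only 2 of the 11, Bola1-Hist2h2ab with values of 98 and 134 and Hist2h2ac-Hist2h2be with 116 and 139, had a hotspot across the stretch in both, beside 633 of all 734 pairs. Hist1h2an-Hist1h2bp, 243 bp apart, had a widest hotspot of 235 bp in both libraries, and Hist1h2bf-Hist1h2ad, 185 bp apart, 1 of 162 bp. Hist1h2bl-Hist1h2ai, 279 bp apart, had 3 peaks in each library with top values of 102 and 140. Histone genes of the same kind are close copies of each other. Of the 32-base words of these regions, those found once in the genome made up 40.0% for Hist1h2bf-Hist1h2ad and 45.1% for Hist1h2an-Hist1h2bp, while the median over all open pairs was 100%. Among the 11 open histone pairs the share ran from that 40.0% up to 89.4% for Bola1-Hist2h2ab. The part of these copies in the narrow hotspots was not tested.

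By the mean percentile of both libraries the highest were Casc1-Etfrf1 with values of 137 and 150, Hjurp-Trpm8 with 142 and 149, Prkar1b-Dnaaf5 with 134 and 150, Zfp142-Bcs1l with 133 and 150 and Swt1-Trmt1l with 132 and 150. Hjurp, the chaperone of the centromeric histone, and Trpm8, the cold-sensing channel of sensory neurons, start 28 bp apart, and 1 peak covered both starts. Bcs1l assembles respiratory complex III and Dnaaf5 assembles ciliary dyneins. Among open pairs the lowest were Amdhd1-Ccdc38 with 23 and 46, Stap2-Mpnd with 36 and 55, Lyzl4-Vipr1 with 36 and 74, Odf3l1-Cspg4 with 34 and 80 and Slc27a5-Trim28 with 38 and 83. None of these 5 had a hotspot across the stretch in either library, and 4 of them had a CpG ratio of 0.160 to 0.473. Slc27a5 is a fatty acid transporter of liver and Trim28 a widely expressed corepressor, and their only peak in replicate 1 lay 878 bp from the Slc27a5 5′ end, near the Trim28 start 922 bp from it.

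No peak of either library lay in 42 pairs (5.72%), and 41 of them had no hotspot in either. The first 10 with named genes, in genome order, were Col4a4-Col4a3, Nmur1-Tex44, Patl2-Terb2, Duox2-Duoxa2, Tssk3-Fam229a, Zfyve28-Cfap99, Gpc2-Stag3, Smyd1-Cd8b1, Il11-Tmem190 and Klc3-Ckm. Several hold a gene known from another tissue: Terb2 and Stag3 act in meiosis, Tssk3 is a kinase of testis, Duox2 and Duoxa2 make hydrogen peroxide in thyroid, Smyd1 and Ckm belong to muscle and Cd8b1 to T cells. Pecam1, the endothelial marker, was also in a closed pair, with Milr1. The closed pairs had a median CpG ratio of 0.468, against 0.772 in the 685 open ones, and 12 of 42 (28.6%) were CpG-rich, against 610 of 685 (89.1%).

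Some genes of closed pairs had an open start elsewhere. In 14 of the 42 pairs, a gene had a peak of both libraries at another annotated start outside the region. These were 17 gene entries, with Aspa entered once for each of its pairs, Aspa-Gm49340 and Aspa-Spata22. No such share is given for open pairs, so this is not shown to be particular to closed ones. Rps2, a ribosomal protein whose annotated 5′ end lies 53 bp from that of Rnf151, had such a start 1947 bp away, Xrcc1 one 1044 bp away, Ccnt1, a cyclin of transcription elongation, one 3243 bp away, Zfp574 one 4638 bp away and Dgcr2 one 6869 bp away. The pairs of Rps2 and Xrcc1 had CpG ratios of 0.152 and 0.292. Pinlyp-Xrcc1 was the closed pair with a hotspot, of 624 and 814 bp. These pairs were chosen after their values were seen.

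Sequence copies were a further feature of a few closed pairs. In Hist1h2bq-Hist1h2ao and Hist1h2ap-Hist1h2br, none of the 32-base words of the region occurred once only (0%), and the printed gap of the second, 235 bp long, is the reverse complement of a stretch of the first, with 0 differences. For Gml-Gml2 the share was 45.7%, and for Hspa1a-Hspa1l, which encode Hsp70 chaperones, 62.4%. How reads with several matches were treated is not known here, and its part in the absence of peaks at these pairs was not tested. The median over the 42 pairs was 100%, and 3 of the 42 were under 50%, as were 9 of the 685 open pairs.

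**Figure D5:**
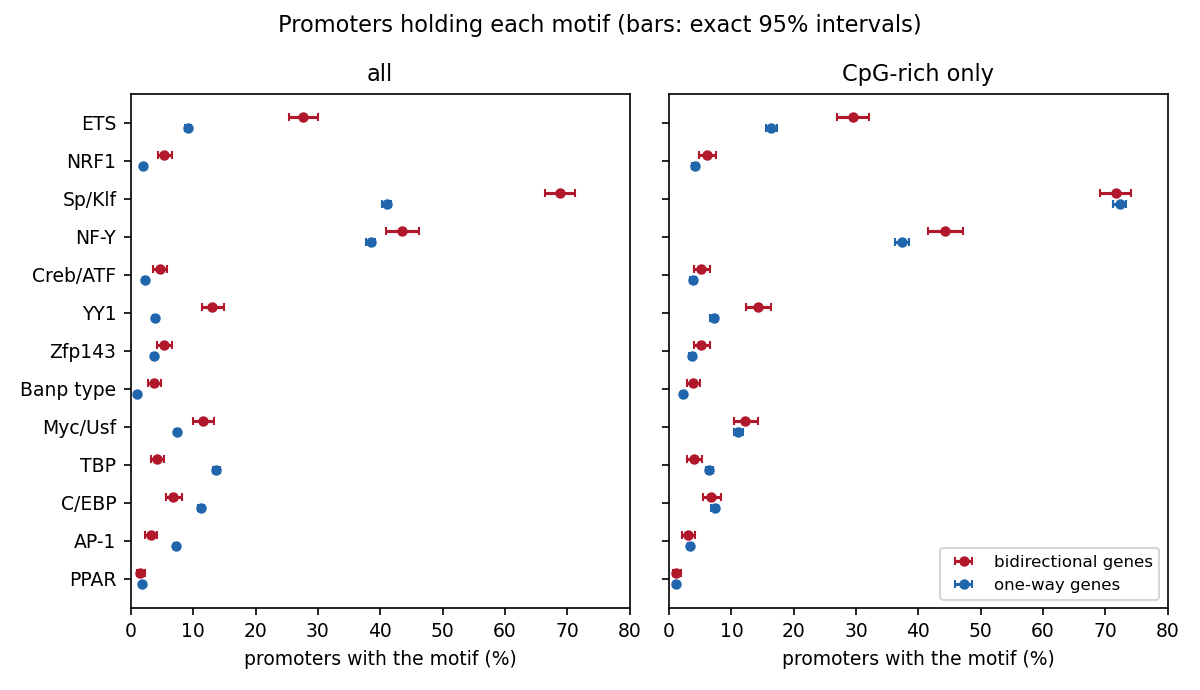
Share of promoters holding each of 13 motifs (x axis, percent) in the 300 bp from 250 bp upstream to 50 bp downstream of a gene 5′ end, for genes of bidirectional pairs (red, n = 1448; 1232 CpG-rich) and one-way genes (blue, n = 17774; 7163 CpG-rich); each row carries the name of a factor or family that the motif is known for. Bars are exact 95% intervals that take genes as independent. Genes of a close pair share much of this sequence, so the bars of pairs are too narrow. As drawn, intervals are separate in both panels for ETS, YY1, NRF1, NF-Y and the Banp-type motif, higher in pairs, and for TBP, lower in pairs. In the right panel the nearest ends are close for NRF1 (4.82% and 4.63%) and the Banp-type motif (2.82% and 2.62%). Intervals of Sp/Klf and 5 others are separate only in the left panel, and those of PPAR in neither.

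The sequence of bidirectional promoters was searched in the 300 bp from 250 bp upstream to 50 bp downstream of each gene 5′ end, on both strands. Both genes of a close pair share much of that sequence, so the 1448 genes are not independent and their intervals are too narrow. The ETS motif CCGGAAG was present at 400 of 1448 paired genes (27.6%, interval 25.3 to 30.0), against 9.17% of one-way genes and 11.0% of all autosomal coding genes. Among CpG-rich promoters the shares were 29.5% and 16.4%. The YY1 motif ATGGCGG was present at 13.1%, against 3.85% of one-way genes, and at 14.2% against 7.13% among CpG-rich ones. Both differences thus remained, smaller, within the CpG-rich class. That class does not make the searched sequence equal: its median CpG ratio was 0.891 at CpG-rich paired genes and 0.817 at CpG-rich one-way genes. In close pairs the 300 bp also hold the partner's start. The part of either in the differences was not tested.

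The other motifs differed in how their shares moved with CpG content. The GC box GGGCGG was present at 68.9% of paired genes, against 41.1% of one-way genes, and among CpG-rich ones at 71.7% against 72.3%, so it did not stand apart there. The CCAAT box was present at 43.6% against 38.5%, and at 44.3% against 37.3% among CpG-rich ones. NRF1 (CGCATGCG) was present at 5.39% against 2.01%, and at 6.09% against 4.15% among CpG-rich ones. The palindrome CTCGCGAG was present at 3.73% of paired genes, against 0.990% of one-way genes, and at 3.82% against 2.25% among CpG-rich ones. The TATA box TATAAA was rarer in pairs, at 4.14% against 13.7%, and at 3.98% against 6.42% among CpG-rich ones. Motifs of factors that direct fat cell differentiation were not more frequent at paired genes: the C/EBP motif TTGCNNAA was present at 6.84% against 11.2%, and among CpG-rich ones at 6.74% against 7.30%. The motif AGGTCANAG, part of the site of Pparg, was present at 1.52% against 1.78%, and among CpG-rich ones at 1.14% against 1.05%. AP-1 (TGANTCA) was present at 3.18% against 7.24%, and among CpG-rich ones at 3.00% against 3.39%. Among CpG-rich promoters the intervals of these 3 motifs overlapped between the kinds of promoter. They also overlapped there for the CRE TGACGTCA (4.63% against 2.23%, CpG-rich 5.20% against 3.87%), the E box CACGTG (11.6% against 7.46%, CpG-rich 12.3% against 11.1%) and the Zfp143 core ACTACAA (5.32% against 3.70%, CpG-rich 5.11% against 3.67%).

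Within the 150 bp of the strongest peak, CCGGAAG was present in 21.9% of the bidirectional peaks in replicate 1 and 21.6% in replicate 2, against 13.6% and 12.7% of one-way peaks. For ATGGCGG the shares within the peak were 5.25% and 5.64%, against 3.87% and 3.88%, with overlapping intervals in both libraries. Counted by pair, CCGGAAG was present at a promoter of 235 of the 685 open pairs (34.3%, interval 30.8 to 38.0) and of 1 of the 42 closed ones, Gml-Gml2. For ATGGCGG the counts were 127 of 685 (18.5%) and 1 of 42, and for ACTACAA 49 of 685 (7.15%) and 0 of 42, which allows a share of up to 8.41%. The palindrome CTCGCGAG was present at 5 of 42 closed pairs (11.9%, interval 3.98 to 25.6) and 26 of 685 open ones (3.80%, interval 2.49 to 5.51), and the intervals overlap. Shares in closed pairs were also above those in open ones for AP-1 (9.52% and 3.65%), the Pparg motif (4.76% and 1.90%), the TATA box (7.14% and 5.40%) and the CCAAT box (54.8% and 51.4%), each with overlapping intervals. The 5 closed pairs with CTCGCGAG were Smc1b-Ribc2, Kctd19-Lrrc36, Sobp-9030612E09Rik and the pairs Aspa-Gm49340 and Aspa-Spata22, which share a gap. Neither the shares within the peak nor those by pair were compared at equal CpG class. Of the open pairs 89.1% were CpG-rich, against 28.6% of the closed ones. Of the strongest peaks, 88.5% and 89.9% were CpG-rich at bidirectional promoters, against 74.1% and 70.7% at one-way promoters. A match says only that these letters are in the window.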

How the data were processed

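DNase-seq peaks and hotspots of 2 libraries, 1 group, were used as deposited. Peaks and hotspots were called per library on the mm10 assembly, per the labels and the text lists deposited with each library, which name 1 alignment per region list. For the caller, its version, filters, aligner, mapping rules and depth the sources used here give nothing. Each 150 bp peak carries a score deposited by the authors, from 1 to 150 and of unknown scaling, which served only for percentiles within its own list. Each hotspot carries a deposited −log10 q-value, with a ceiling of 100 that 46.7% and 48.5% reached. Identical peak lines (20 and 33) were counted once, and lines outside chromosomes 1 to 19, X and Y were left out.

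Regions came from GENCODE M21 gene lines, and sequence and CpG content from GRCm38.p6. A peak or hotspot counted with an overlap of 1 bp. A gene line can be lengthened by a rare transcript. Python 3.11.15, NumPy 2.4.6, SciPy 1.17.1, pysam 0.24.0 and Matplotlib 3.10.9 were used, and the scripts were tested on simulated regions. Named pairs were those of a list of known pairs, the 5 with the highest and lowest mean percentile, the first 10 closed and first 6 pairs with a peak in 1 library and the first 3 of each list in genome order, the 4 nearest to the distance limit on each side and the 3 with the widest hotspots; others are named for known roles. Not every pair that this rule gives is reported here. The members, lists and motifs were chosen with earlier results of these data known. No test was run across promoters, which are not replicates. Signal tracks were not used here.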

Additional observations from a re-analysis of the deposited data

How the results depend on the processing

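Bidirectional promoters exceeded one-way promoters under every alternative run. The difference in the share with a peak of both libraries was 48.9 percentage points. It was 52.2 with the stronger 50% of each list, 51.8 against one-way genes with no gene of any kind near, 20.2 among CpG-rich promoters, and between 45.8 and 48.8 with 1 library left out. The difference in the median percentile was 96.1. That is the bidirectional median itself, because most one-way windows had no peak and their median was 0. Wherever that median stayed at 0, little change in the difference was fixed in advance. The difference was 87.0 without genes of Gm and Rik symbols and 4.75 among CpG-rich promoters. The difference in the share with a hotspot of both libraries over the stretch was 48.6 percentage points. It was 53.0 for pairs at most 300 bp apart, 51.4 against one-way genes with no gene of any kind near, 20.7 with 500 bp to each side of every 5′ end, a longer stretch to cover, 21.4 among CpG-rich promoters, 46.9 without Gm and Rik genes, and between 46.6 and 48.5 with 1 library left out. The number of pairs without a peak in either library, 42, was between 32, without Gm and Rik genes, and 48, with the stronger 50% of each list or without replicate 2. None of the alternatives run changed the sign of a difference. Counting overlapping regions once was added after seeing the data and gave 49.0 and 48.6 percentage points, 96.1 in the median percentile and 40 closed pairs. No paired analysis was possible because there is only 1 group. The number of pairs in the lowest CpG classes, and the unknown read depth, limit what can be said of closed pairs.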
